A study of Mus musculus with 12 samples.

Results

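C57BL/6 mice are kept as substrains, of which C57BL/6J and C57BL/6N are the best known. Some genes differ between them, for example by deletion, duplication, sequence or level. The genes described here are Nnt, Wdfy1, Entpd4 and Entpd4b, which were chosen by name because they are known to differ between C57BL/6 substrains and so bear on the genetic background of a mouse line. Of the 4 genes, 3 had a row in the count table of 56065 genes, and all 3 were among the 17893 genes that passed the filter on low counts. Entpd4b had no row and its own level was not analysed here.

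Bulk RNA-seq was performed on submandibular glands (SMG) of 12 mice, with 3 mice in each of 4 groups: wild-type (WT) females, knockout (KO) females, WT males and KO males. The WT mice were C57BL/6J, and the KO mice, labelled C57BL/6J-Pou2f3 knockout, were the line C57BL/6J-Pou2f3em1Cbwi/J, 8 weeks old and from the same supplier. Pou2f3 is the transcription factor that tuft cells need in order to form, and the KO allele is carried in the germline. Both genotypes are therefore named as C57BL/6J, no mouse of another substrain was measured, and genotype cannot be told apart from any other difference between the 2 lines.

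Nnt encodes nicotinamide nucleotide transhydrogenase, an enzyme of the inner mitochondrial membrane that uses the proton gradient to make NADPH from NADH. The NADPH feeds the glutathione and thioredoxin systems that remove peroxides, and C57BL/6J mice carry a deletion of several Nnt exons that other substrains lack. Wdfy1 encodes an endosomal protein with a FYVE domain, which binds phosphatidylinositol 3-phosphate, and with WD repeats, and it helps to bring the adaptor TRIF to Toll-like receptors 3 and 4. Entpd4 encodes an intracellular member of the family that removes phosphates from nucleoside diphosphates and triphosphates, here in the Golgi and lysosomal compartments, and Entpd4b is a second copy of it.

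In the mouse genome build GRCm39 with the Gencode M39 annotation, Nnt (ENSMUSG00000025453) lies on the minus strand at chr13:119470859-119566380, and its canonical transcript has 17 exons and 3709 bases. Wdfy1 (ENSMUSG00000073643) lies on the minus strand at chr1:79679017-79753860, and its canonical transcript has 12 exons and 5538 bases. Entpd4 (ENSMUSG00000095463) lies on the plus strand at chr14:69574623-69604719, and Entpd4b (ENSMUSG00000022066) on the plus strand of the same chromosome at chr14:69792873-69822969. The table gave 1 value per gene and none per exon, so it held no value for the deleted Nnt exons. Whether the reference transcripts include those exons was not examined either, and the deletion was not looked for.

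The Entpd4 and Entpd4b gene bodies were the same at each of their 30097 bases, with 0 differences, and their starts lay 218250 bases apart. The identity ran on without a break for 82889 bases before the starts and 12829 bases after the ends. The window around the start is shown because it is one sequence at 2 places, chr14:69574373-69574642 for Entpd4 and chr14:69792623-69792892 for Entpd4b, both on the plus strand of GRCm39. The capitals mark the first 20 bases of the transcribed part, after 250 bases that precede it.
Entpd4 and Entpd4b: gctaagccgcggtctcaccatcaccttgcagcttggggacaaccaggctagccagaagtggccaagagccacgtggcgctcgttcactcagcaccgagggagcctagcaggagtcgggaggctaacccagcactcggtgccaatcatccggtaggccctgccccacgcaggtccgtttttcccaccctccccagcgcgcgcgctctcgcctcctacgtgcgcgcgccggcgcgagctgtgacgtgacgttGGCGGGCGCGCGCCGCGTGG
All 6 annotated Entpd4b transcripts were identical in sequence to a transcript of Entpd4, which has 8, of which 2 are its own. Of 1592 annotated genes whose every transcript is identical to one of another gene, 1089 (68.4%) had no row, and for 1049 of those a partner gene did. Among the 76498 genes with no such transcript, 28.3% had no row, in an annotation newer than the one the authors used. The row named Entpd4 therefore cannot separate the 2 copies, and every Entpd4 value below may hold reads of both.

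The 12 libraries held 47032175 to 67882207 estimated counts. Between 11.8% and 39.1% of a library belonged to Rn7s1, a small cytoplasmic RNA, and the factors of the trimmed mean of M-values (TMM), which adjust library sizes for such differences in composition, were lowest in WT females (0.625 to 0.759) and 0.902 to 1.45 in the other groups. The gland's own markers were present in every library: the 7 acinar markers summed to 48200 to 59100 CPM (counts scaled to the TMM-adjusted library size) in WT females, 30200 to 39300 in KO females, 12900 to 18400 in WT males and 9740 to 13200 in KO males. Pou2f3 itself had 0 to 10 counts in WT and 0 to 3 in KO libraries, too few to check the labels. Summed adipocyte markers were 41.5 CPM in WT female 3 and 32.0 CPM in KO male 2, against 1.42 to 15.5 in the other libraries, and summed lymphocyte markers were highest, at 41.9 CPM, in WT female 1. In bulk tissue, fewer cells of a type and less RNA per cell cannot be told apart.

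Wdfy1 was higher in KO females than in WT females, by 2.00-fold, and this was the largest genotype difference among the 3 genes. The CPM values on TMM library sizes were 3.91, 3.75 and 2.97 in WT females and 7.09, 6.66 and 7.52 in KO females. In males, they were 5.21, 3.37 and 4.14 in WT and 4.55, 4.67 and 4.33 in KO glands. The 3 KO females lay above all 9 other libraries, a pattern that 9.70% of tested genes had, whereas the male groups overlapped. Group means were 3.54 ± 0.501 CPM in WT females, 7.09 ± 0.431 in KO females, 4.24 ± 0.927 in WT males and 4.52 ± 0.170 in KO males (SD, n = 3 each). The counts behind these values were 114 to 201 in WT females and 351 to 397 in KO females.

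**Figure D1:**
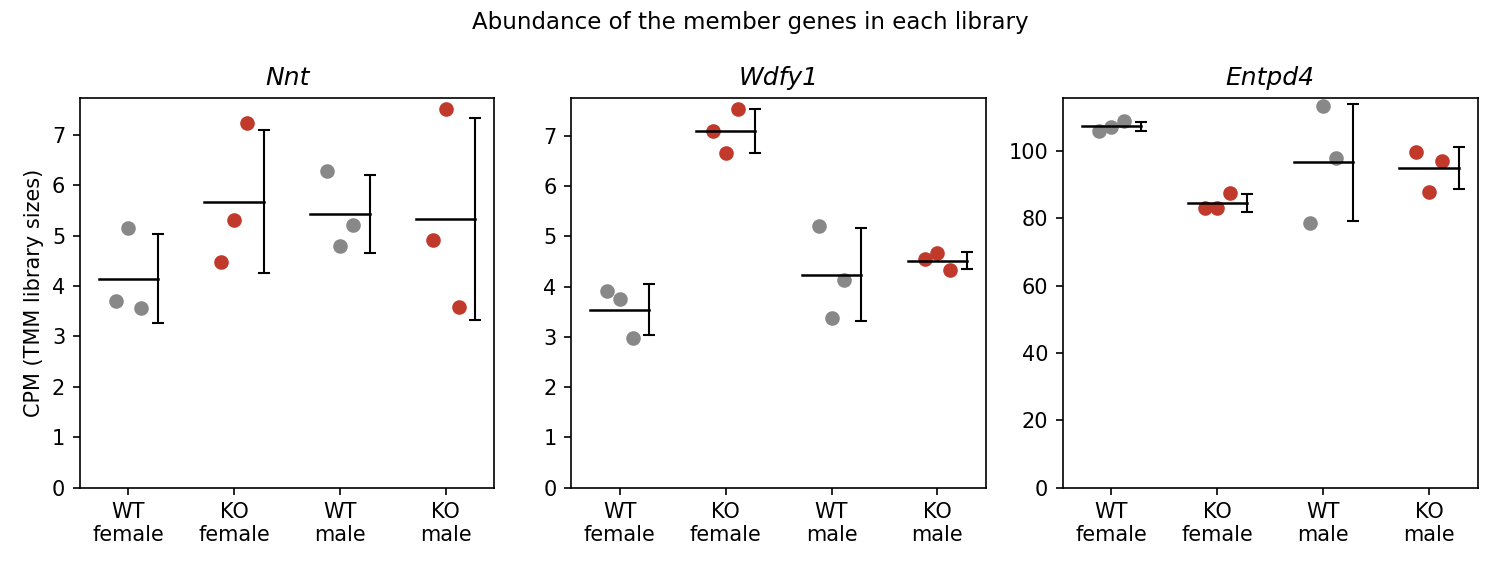
Each panel plots 1 gene, with CPM on TMM library sizes on the vertical axis and the 4 groups along the horizontal axis. Each point is 1 library, the horizontal line is the mean and the bar is 1 SD (n = 3). The KO females sit at 6.66 to 7.52 CPM for Wdfy1, above the other libraries, and at 82.9 to 87.5 CPM for Entpd4, below the WT females.

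In edgeR's quasi-likelihood test over all genes, the Wdfy1 difference in females was 1.00 on the log2 scale (SE 0.164, adjusted p = 0.000772). In the same contrast, 36.9% of tested genes were called at an adjusted p under 0.05, 3158 higher and 3453 lower, or 3962 higher and 2679 lower with upper-quartile scaling. The higher genes numbered 1940 without WT female 3, 2013 without KO female 1 and 2091 without KO female 3. In males, the Wdfy1 difference was 0.09 (SE 0.160, adjusted p = 0.885), where 0.235% of tested genes were called. The difference between the female and the male effect was 0.91 (SE 0.229, adjusted p = 0.0149), a test that called 25.7% of genes. The interaction was not called without KO female 3 (0.79, adjusted p = 0.0505). The male value changed sign without WT male 2 (-0.05, adjusted p = 0.921). Averaged over both sexes, the KO minus WT difference was 0.54 (SE 0.115, adjusted p = 0.00852, 17.5% of genes called). In the exact two-sided permutation test, which exchanged genotype within each sex over all 400 arrangements and can give no p below 0.005, the averaged log2 CPM difference was 0.56 (p = 0.035, adjusted p = 0.105 over the 3 genes).

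Wdfy1 was also the gene whose size of difference depended most on the scaling. The second deposited table holds normalized values, and the quotient of count and normalized value is a factor that differed from gene to gene within a library. Relative to the median factor of its library, the log2 factor of Wdfy1 was 0.21, 0.87 and 0.30 in WT females and -0.41, -0.76 and -0.34 in KO females. In males it lay between -0.16 and 0.25. The mean factor in KO females was thus lower than in WT females by 0.961 on the log2 scale, and 0.562% of 17801 genes had a lower value of this difference. Over the 12 libraries its SD was 0.412, against a median of 0.130 over those genes, 0.0937 for Nnt and 0.0803 for Entpd4. How these factors were made is not given in the sources used here, and their part in the result was not tested beyond the 2 scalings. Whether they carry differences in transcript length between libraries was not tested either, so the size of the Wdfy1 difference and its level per kilobase hold for the scaling named beside them.

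**Figure D2:**
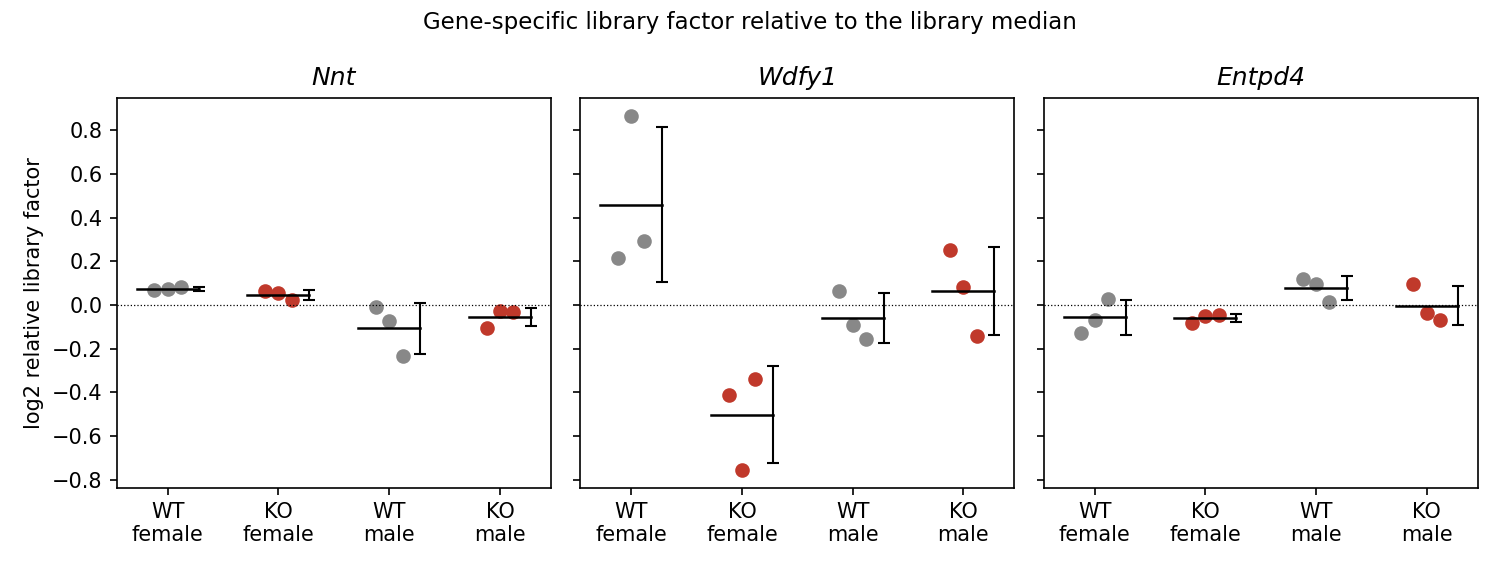
The vertical axis is the log2 of the factor between deposited count and deposited normalized value, relative to the library's median factor, and the 4 groups are along the horizontal axis. Points are libraries, lines are means and bars are 1 SD (n = 3). For Wdfy1, the WT females are above 0 and the KO females below it, while Nnt stays between -0.24 and 0.08 and Entpd4 between -0.13 and 0.12.

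In the authors' normalized values, Wdfy1 stood at 192, 121 and 144 in WT females and at 515, 620 and 519 in KO females. WT males had 275, 201 and 257, and KO males 215, 252 and 271. Each KO female exceeded each of the other 9 libraries on this scaling of the same counts too. The share of all genes with that pattern was computed with TMM only. With the factors used as offsets in the same test, the female difference was 1.86 (SE 0.199, adjusted p = 0.000156) and the interaction 1.85 (SE 0.275, adjusted p = 0.0038). The male difference was 0.01 (SE 0.192, adjusted p = 0.997). The difference between WT males and WT females was 0.26 with TMM (SE 0.163, adjusted p = 0.238, 36.5% of genes called), 0.08 without WT male 1, 0.40 without WT male 2 and 0.69 with the authors' factors, where it was called (SE 0.195, adjusted p = 0.0183).

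**Figure D3:**
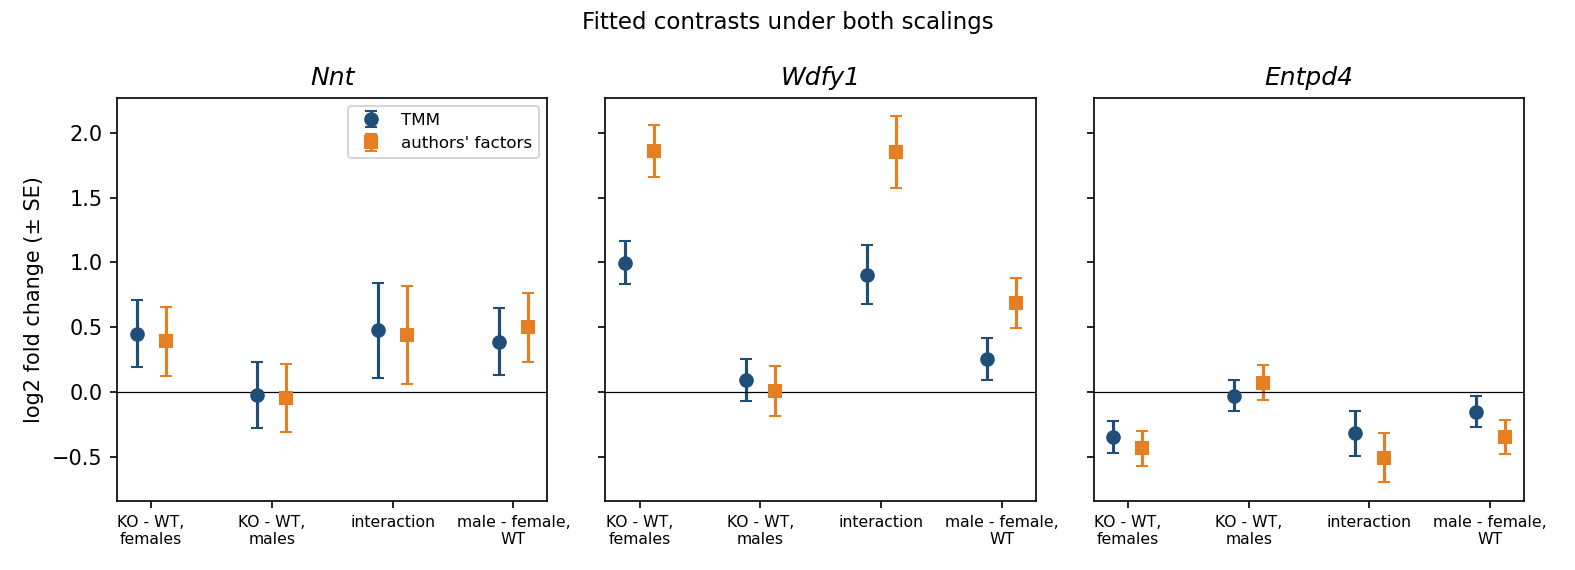
The vertical axis is the fitted log2 fold change with its SE, and the 4 contrasts are along the horizontal axis; the interaction is the female minus the male KO effect. Circles are fits with TMM library sizes and squares fits with the authors' factors. The Wdfy1 value in females moves from 1.00 to 1.86 between the scalings, while its male value stays at 0.09 and 0.01.

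Entpd4 was lower in KO than in WT females, by 1.27-fold, and this call did not hold under several alternatives. The CPM values were 106, 107 and 109 in WT females and 82.9, 83.0 and 87.5 in KO females. In males, they were 78.7, 113 and 98.0 in WT and 99.7, 87.7 and 97.0 in KO glands. The female groups did not overlap, as for 49.3% of tested genes, and the WT males spanned both female groups. The male groups overlapped for all 3 genes, whereas 14.5% of tested genes had male groups without overlap. Group means were 107 ± 1.48 CPM in WT females, 84.5 ± 2.58 in KO females, 96.6 ± 17.3 in WT males and 94.8 ± 6.27 in KO males (SD, n = 3 each).

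The Entpd4 difference in females was -0.34 on the log2 scale (SE 0.122, adjusted p = 0.0417 by edgeR's quasi-likelihood test). It was not called with upper-quartile scaling (-0.24, adjusted p = 0.109), which moved the median of all genes in this contrast from 0.03 to 0.13, nor without the filter on low counts (-0.36, adjusted p = 0.0557). It was also not called without WT female 3 (-0.37, adjusted p = 0.0609), KO female 1 (-0.38, 0.0583), WT male 3 (-0.35, 0.0531) or KO male 3 (-0.35, 0.0551). In males the difference was -0.03 (SE 0.122, adjusted p = 0.960), and the interaction was -0.32 (SE 0.172, adjusted p = 0.186). The interaction was called without WT male 2 (-0.45, adjusted p = 0.043). The averaged difference was -0.19 (SE 0.0861, adjusted p = 0.149) and was called without WT male 1 (-0.25, adjusted p = 0.0361). The exact permutation test gave -0.18 (p = 0.085, adjusted p = 0.128), and without WT male 1 a p of 0.015.

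Nnt was measured in every library and showed no called difference in any contrast. The CPM values were 3.71, 5.16 and 3.57 in WT females and 4.47, 5.32 and 7.24 in KO females. In males, they were 6.29, 4.80 and 5.21 in WT and 4.92, 7.52 and 3.58 in KO glands. The groups overlapped in both sexes, and the highest and the second lowest library, 7.52 and 3.58 CPM, were both KO males. The counts ranged from 137 to 473. In females the KO minus WT difference was 0.45 (SE 0.261, adjusted p = 0.195). The males gave -0.03 (SE 0.255, adjusted p = 0.984), and the interaction was 0.48 (SE 0.364, adjusted p = 0.348). Leaving out single libraries moved the female value between 0.19 and 0.59 and the male value between -0.35 and 0.20, with no call in either. The interaction ranged from 0.18 without KO female 3 to 0.80 without KO male 2, also with no call. WT males against WT females gave 0.39 (SE 0.259, adjusted p = 0.259). The exact permutation test gave 0.18 (p = 0.415), and with single libraries left out 0.041 to 0.31 (p from 0.125 to 0.88).

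Per kilobase of canonical transcript, the mean level over the 12 libraries was 52.0 ± 6.30 CPM for Entpd4, 1.39 ± 0.354 for Nnt and 0.875 ± 0.269 for Wdfy1 (SD, n = 12). The canonical Entpd4 transcript is 1842 bases long and that of Entpd4b 3589 bases, and on the longer one the Entpd4 level was 26.7 CPM per kilobase. Entpd4 led in each library on either length. The ranges of Nnt (0.963 to 2.03) and Wdfy1 (0.537 to 1.36) overlapped. The coefficient of variation over the 12 libraries was 12.1% for Entpd4, 25.5% for Nnt and 30.7% for Wdfy1, and 7.86%, 42.1% and 51.7% of tested genes had a lower one.

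A list of 20 genes of mitochondrial NADPH supply and redox balance, the systems around Nnt, was examined next, and all 20 were tested. In KO females 14 fell, 1 rose and 5 did not pass the test, where 36.9% of all genes were called, and the median log2 fold change was -0.54 against 0.03 over all genes. In males edgeR called 0 of them, where 0.235% of all genes were called (1 at an unadjusted p under 0.05 and 1 by DESeq2, against 2056 and 396 of all 17893 genes), and the median was 0.04 against -0.04 over all genes. Glrx5, a mitochondrial glutaredoxin of iron-sulfur cluster assembly, was at 20.7 to 24.2 CPM in WT females and at 9.92 to 11.8 in KO females (-0.97, SE 0.117, adjusted p = 0.000226). Sod2, the mitochondrial superoxide dismutase, was at 107 to 121 and at 67.1 to 72.6 CPM (-0.72, SE 0.106, adjusted p = 0.000467).

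Gpx4, which reduces lipid peroxides, stood at 43.2 to 56.1 CPM in WT and 27.1 to 30.1 in KO females (-0.85, SE 0.125, adjusted p = 0.00047). Txn2, the mitochondrial thioredoxin, stood at 23.9 to 30.0 and 16.2 to 17.5 CPM (-0.63, SE 0.0990, adjusted p = 0.000619). The gene that rose was Me3, the mitochondrial NADP-dependent malic enzyme, at 6.69 to 10.7 CPM in WT and 12.1 to 15.3 in KO females (0.73, SE 0.158, adjusted p = 0.00355), and it was no longer among the calls with the authors' factors, which gave 0 higher genes. Me3 was chosen after its values were seen. Nnt itself, at 0.45, was on the other side of 0 from most of this list, without a call. The acinar marker sums given above differed between these female groups in the same direction as the list. Of the 7 acinar markers, 2 were called lower in KO females and 0 higher (median -0.537). In males 0 of the 7 were called, with a median of -0.525, where the list had 0.04. Of the 5 adipocyte markers 2 were also lower in KO females (median -3.13), and all 5 were called for the interaction in that direction (median -8.50). Their summed level was 3.25 to 41.5 CPM in WT females, 2.40 to 4.88 in KO females, 1.42 to 1.53 in WT males and 2.66 to 32.0 in KO males. The part of either marker list in the result was not tested. With single libraries left out, 13 to 15 genes of the list fell.

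Of 11 genes of ectonucleotidases and related enzymes, the relatives of Entpd4, 10 were tested and 3 fell in KO females, with a median of -0.26. Over all genes 36.9% were called in this contrast, so the values below describe single genes and not the family. In males edgeR called 0, against 0.235% of all genes, and the median was -0.15. At an unadjusted p under 0.05 there was 1 and by DESeq2 0, against 2056 and 396 of all 17893 genes. Entpd7, another intracellular member, was at 40.1 to 51.0 CPM in WT and 23.1 to 31.2 in KO females (-0.81, SE 0.163, adjusted p = 0.00232). Entpd5, which acts on nucleoside diphosphates in the endoplasmic reticulum, was at 18.6 to 21.2 and 13.3 to 15.8 CPM (-0.43, SE 0.110, adjusted p = 0.00885). Entpd1, the cell-surface enzyme CD39, was at 9.31 to 12.1 and 6.35 to 9.16 CPM (-0.54, SE 0.150, adjusted p = 0.0139). The count rose to 6 without WT female 1, and to 5 without WT female 2 or without KO female 1. Entpd8 had 0 to 3 counts per library.

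Of 18 genes that encode relatives of Wdfy1 or act with Toll-like receptors 3 and 4 and at early endosomes, all tested, 4 fell and 1 rose in KO females, with a median of -0.12. Over all genes 36.9% were called, and the number of lower genes was 3 to 6 under the alternatives, so these too are values of single genes. In males edgeR called 0, against 0.235% of all genes, and the median was 0.04. At an unadjusted p under 0.05 there were 3 and by DESeq2 0, against 2056 and 396 of all 17893 genes. Traf3, a signalling adaptor, was at 25.3 to 29.9 CPM in WT and 18.0 to 21.3 in KO females (-0.51, SE 0.115, adjusted p = 0.00481). Tlr3, the receptor for double-stranded RNA, was at 19.3 to 24.0 and 13.9 to 16.3 CPM (-0.52, SE 0.135, adjusted p = 0.0102). Rab5a, a small GTPase of early endosomes, was at 58.1 to 72.3 and 37.1 to 53.4 CPM (-0.52, SE 0.147, adjusted p = 0.0145).

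Wdfy2, the relative of Wdfy1 in this list that passed the test, fell from 62.6 to 74.4 CPM in WT females to 52.8 to 59.6 in KO females (-0.28, SE 0.0869, adjusted p = 0.0219), a direction opposite to that of Wdfy1. Wdfy3 (0.03, adjusted p = 0.902) and Wdfy4 (0.04, adjusted p = 0.949) were not called. The gene that rose was Irf3, a transcription factor of the interferon response (0.33, SE 0.116, adjusted p = 0.0403), and it is named after its value was seen. The number of higher genes was 0 with the scaling of DESeq2 (relative log expression), 3 with upper-quartile scaling and 2 with the authors' factors. It was 0 without WT female 2, KO female 1, KO female 3 or any single WT male.

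Of 7 other genes known to differ between C57BL/6 substrains, 4 were tested and edgeR called 0 in either sex, where 36.9% of all genes were called in females and 0.235% in males. At an unadjusted p under 0.05 there was 1 in each sex, against 8290 of all 17893 genes in females and 2056 in males. DESeq2 called 1 in females and 0 in males, against 6975 and 396 of all genes. Cyfip2 and Dock2 are named although they were not called, a choice made after their values were seen. Cyfip2, a regulator of actin, was at 4.25 to 5.74 CPM in WT and 2.72 to 3.32 in KO females, 2.19 to 5.31 in WT males and 1.87 to 2.84 in KO males (-0.70 in females, SE 0.297, adjusted p = 0.0808). Dock2, a guanine nucleotide exchange factor of leukocytes, was at 5.27 to 16.4, 6.53 to 9.54, 4.35 to 5.22 and 4.92 to 13.6 CPM in the same order (-0.21 in females, SE 0.400, adjusted p = 0.722). Crb1, Gabra2 and Nlrp12 had 0, at most 8 and at most 4 counts in any library, so no difference was detectable at this depth. The counts give levels only, so differences in the sequence of these 7 genes were not examined.

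The tested genes around each of the 3 were examined next. Within 1 Mb, 3 of 13 tested genes around Nnt were called in females, 2 of 12 around Wdfy1 and 6 of 25 around Entpd4, which makes 23.1%, 16.7% and 24.0% against 36.9% of all genes. Without WT female 1, the share was 38.5% around Nnt and 38.5% around Wdfy1. It was also 38.5% around Nnt without WT male 2 or KO male 1. In males, where edgeR called 0.235% of all genes, it called 0 within 1 Mb of each gene. At an unadjusted p under 0.05 there were 2, 1 and 3 genes, against 2056 of all 17893. DESeq2 called 1, 0 and 1, against 396 of all genes. Within 5 Mb, the shares in females were 26.9%, 34.5% and 28.9%. Of the 26, 58 and 76 genes tested within 5 Mb, edgeR called 0, 1 and 0 in males, and DESeq2 1, 2 and 4.

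**Figure D4:**
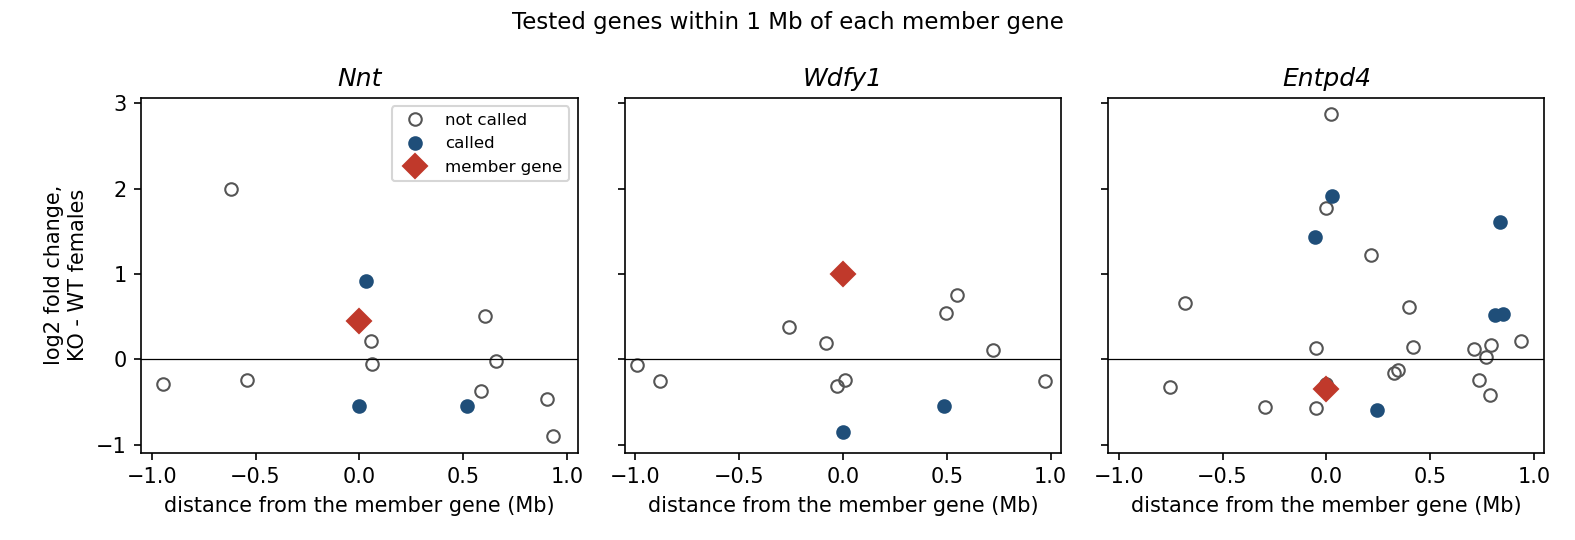
The vertical axis is the log2 fold change of KO minus WT females and the horizontal axis the distance from the edge of the gene in Mb. Filled points are genes called at an adjusted p under 0.05, open points are not called, and the diamond is the gene itself. Wdfy1, at 1.00, lies above the 12 tested genes around it, and its called neighbours are both below 0.

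Mrpl44, a protein of the mitochondrial ribosome on the opposite strand, overlaps the 5′ end of Wdfy1 by 126 bases and moved the other way, falling by 0.86 in KO females (SE 0.140, adjusted p = 0.000771). In males it stood at -0.03 (adjusted p = 0.960). Cul3, a scaffold of ubiquitin ligases 489 kb away, also fell (-0.55, SE 0.111, adjusted p = 0.00243). The nearest other coding genes, Ap1s3 (-0.32, adjusted p = 0.0985) and Serpine2 (-0.25, adjusted p = 0.407), were not called. The libraries were stranded, and no transcript of Wdfy1 was identical to one of another gene. Whether reads of Mrpl44 and Wdfy1 were counted for each other was not tested.

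Around Nnt, Paip1, a regulator of translation that overlaps it by 1499 bases on the opposite strand, fell in KO females (-0.54, SE 0.127, adjusted p = 0.00543), and 4833420G17Rik, 32.9 kb away, rose (0.91, SE 0.119, adjusted p = 0.000281). The chemokine gene Ccl28, 519 kb away, fell (-0.54, SE 0.152, adjusted p = 0.0139). On the other side the nearest tested coding gene, Fgf10, a growth factor that salivary glands need for their development, was 542 kb away and not called (-0.25, SE 0.198, adjusted p = 0.353). Around Entpd4, Gm49417 (1.61, SE 0.282, adjusted p = 0.00109), Sorbs3 (0.51, SE 0.121, adjusted p = 0.00569) and Gm20236 (1.44, SE 0.354, adjusted p = 0.00729) rose, and Loxl2, a lysyl oxidase and the nearest coding gene after the Entpd4b copy, fell (-0.59, SE 0.181, adjusted p = 0.0213). Slc25a37, the mitochondrial iron importer on the other side, was not called (0.14, adjusted p = 0.433). The coding gene Gm16867, which overlaps Entpd4, was also not called (-0.28, SE 0.364, adjusted p = 0.574).

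The genes whose log2 CPM over the 12 libraries was most like that of Wdfy1 were Adam4 (r = 0.982), Cspp1 (r = 0.978) and Pwwp2a (r = 0.971). Cspp1 was at 10.4 to 16.4 CPM in WT females, 25.7 to 30.1 in KO females, 13.9 to 21.1 in WT males and 15.4 to 16.6 in KO males, so that it too was highest in KO females. For Entpd4 they were Cul2 (r = 0.914), Mrm2 (r = 0.903) and Kpna3 (r = 0.896), and for Nnt Kif3a (r = 0.858), Gm45483 (r = 0.847) and Gm57182 (r = 0.824). These are Pearson correlations chosen as the highest of 17892 for each gene, over points that share library size and composition, and they are given as a description.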

How the data were processed

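Libraries were prepared by the authors from total RNA with ribosomal RNA removal (stranded), sequenced on a NovaSeq instrument and quantified with Salmon 1.10.1 against Gencode M35 (GRCm39). The labels name the molecule as polyA RNA. The authors deposited estimated counts per gene (expected counts, of which 78.7% of values are whole), and a second table of normalized values (unit signal), whose derivation is not given in the sources used here.

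Estimated counts were rounded and fitted in edgeR 4.0.16 (R 4.3.3) with a quasi-likelihood test, TMM library sizes, filterByExpr and a mean per group over all 12 libraries, with Benjamini-Hochberg adjustment over 17893 genes and a threshold of 0.05. Depth was 47032175 to 67882207 counts per library. A count of 3, taken as the floor, is 0.0442 to 0.0638 CPM. Exact permutations used log2 CPM with a prior count of 2. Each mouse gave 1 library, and all replicates differed by more than sampling noise. Gene identifiers were matched to Gencode M39, in which 55563 of 56065 were found. On data simulated for the female comparison over 17513 genes, the fit recovered 37% of 100 genes changed 2-fold and 0% of 100 changed 1.25-fold, with 3 false calls. That simulation gave 40 calls in all, against 6611 in the measured female contrast. The adjustment is stricter where fewer genes are called, so these rates do not carry over to the measured contrast.

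Named were the members in every library and the 3 genes most like each member. Of each list, at most 4 called genes per contrast were named by smallest adjusted p. Some other list genes, called or not, were named besides. Of the genes within 1 Mb, those named were the nearest coding gene on each side, coding genes that overlap a member and at most 3 called ones. The members and lists were chosen with earlier results of these data known. Alternatives were other scalings and filters, DESeq2 1.42.0, fits within each sex, the authors' factors as offsets, a replicate block, other windows and leaving out each library. The sum of Entpd4 and Entpd4b and the Entpd4b share were planned and not computed, since Entpd4b had no row.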

Additional observations from a re-analysis of the deposited data

Results flagged for a closer look

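The results here were singled out because the KO effect differed between females and males by the interaction term of the same edgeR fit (female minus male, log2). Groups of 3 are too small for a test of outlying samples. For Wdfy1 the interaction was 0.906 (adjusted p = 0.015), from 0.998 in females and 0.0912 in males. Among the genes of mitochondrial NADPH and peroxide removal, it was -0.994 for Gpx4 (adjusted p = 0.0044), -0.724 for Txn2 (0.0052), -0.888 for Gpx1 (0.0064), -0.789 for Glrx5 (0.007) and -0.524 for Sod2 (0.024). Over the 20 genes of that list the interaction was called in 12 in this direction and in 1, Me3, in the other (0.845, adjusted p = 0.0163). All 5 adipocyte markers were called for the interaction in the direction of the 12 (median -8.50), and their part in it was not tested. It was -0.876 for Entpd7 (adjusted p = 0.018), -0.657 for Traf3 (0.014) and -0.624 for Rab5a (0.043). For Ticam2, the adaptor TRAM, it was -2.38 (adjusted p = 0.037), from -0.892 in females and 1.49 in males, at levels of 0.320 to 1.91 CPM. The 2 tested lymphocyte markers had medians of -0.591 in females, 1.38 in males and -1.97 for the interaction, with 0 called. Their part in the Ticam2 value was not tested. In the interaction test 25.7% of all genes were called.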

How the results depend on the processing

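The female Wdfy1 difference kept its direction and call under all 21 alternatives, between 0.85 and 1.86 (adjusted p from 1.27e-06 to 0.00547), and its averaged difference under all 20, between 0.47 and 0.93. With the authors' factors, the WT male minus female difference of Wdfy1 was called (0.69) and the male Entpd4 value changed sign (0.073). The female Entpd4 value was not called with upper-quartile scaling (-0.24), without the filter on low counts (-0.36) or with the replicate block (-0.34, adjusted p = 0.0561). Same-numbered libraries did not deviate together (correlations from -0.13 to 0.09), so the numbers do not pair the mice, and the block changed no other call of the 3 genes. The near-zero male Nnt value changed sign with the 20 most abundant genes left out (0.0014), with at least 10 counts in every library (0.0057) and with fits within each sex (0.00072), as did the male Entpd4 value with at least 10 counts (0.0050). The genes called in males numbered 42, but 389 without the low-count filter and 396 by DESeq2. The cause of these shifts was not tested.

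Leaving out each library in turn gave a range of -0.42 to -0.35 for Entpd4 in females, -0.15 to 0.10 for Entpd4 in males, -0.35 to 0.20 for Nnt in males and -0.048 to 0.27 for Wdfy1 in males. The averaged Entpd4 difference ranged from -0.25 to -0.12, and the interaction from -0.45 to -0.19 for Entpd4 and from 0.72 to 1.04 for Wdfy1. The permutation differences ranged from 0.48 to 0.64 for Wdfy1 (p = 0.065 without WT male 2) and from -0.25 to -0.12 for Entpd4. Genes called ranged from 13 to 635 in males (635 without KO male 1), from 1804 to 4401 averaged over the sexes and from 2385 to 5562 for the interaction.

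The alternatives for gene lists and neighbours, other than the 5 Mb window, were chosen after seeing the data. The higher genes of the Nnt-related list numbered 0 with the authors' factors. Those of the Wdfy1-related list numbered 0 with relative log expression, 3 with upper-quartile scaling and 2 with the authors' factors, and 0 to 1 with single libraries left out. The lower genes of the Entpd4-related list numbered 3 to 6. Called neighbours of Wdfy1 made up 34.5% within 5 Mb, and 15.4% to 38.5% within 1 Mb with single libraries left out (38.5% without WT female 1). Those of Nnt made up 38.5% with the authors' factors and 23.1% to 38.5% with single libraries left out (38.5% without WT female 1, WT male 2 or KO male 1). The alternatives for the Entpd4b share were not run. With 114 to 473 counts per library for Wdfy1 and Nnt, small differences were not detectable at this depth and number of mice.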
